A study of Mus musculus with 6 samples.

Results

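Small leucine-rich proteoglycans are secreted matrix proteins with a leucine-rich repeat core. The 9 genes examined here, of 32285 in the count tables, were Dcn (decorin), Lum (lumican), Fmod (fibromodulin), Bgn (biglycan), Ogn (osteoglycin), Aspn (asporin), Omd (osteomodulin), Prelp and Podn (podocan). They were chosen by name, as members of this family, by a rule that used no measured value, though with earlier results of these data known.

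Decorin and biglycan carry chondroitin or dermatan sulphate chains, and asporin is their close relative without such a chain. Lumican, fibromodulin, osteomodulin and PRELP form a second branch of the family, several of them with keratan sulphate, and osteoglycin and podocan belong to further branches. These proteins bind collagen fibrils and set their diameter and spacing. Decorin, biglycan, fibromodulin and asporin also bind TGFβ, and decorin was early known as an inhibitor of it. In the brain they are known from the meninges and the vessel wall, and they are laid down in the fibrotic part of a scar.

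Nuclei came from cortical lesions left by photothrombotic (PT) injury, in which a light-activated dye clots cortical vessels, and their RNA was counted nucleus by nucleus. The 6 libraries were wild type (Ctrl), wild type given ADWA11, and Col1a2(creER); Tgfbr2(flox) mice (Tgfbr2-cKO), each at 7 and 21 days post injury (dpi). ADWA11 is an antibody that blocks the αvβ8 integrin, an activator of latent TGFβ, and per the study's methods it was injected on the day of injury and weekly after. In Tgfbr2-cKO, tamoxifen switches on a Cre that is driven by the Col1a2 promoter and removes the type II TGFβ receptor from collagen-producing cells, so any Col1a2-expressing cell could be hit and cells without recombination remain. Tissue of 1 male and 1 female mouse went into each library, and each group was 1 library. No difference below was tested across mice, and the labels give no age. They give the treatment of Ctrl and Tgfbr2-cKO as NA, and the study's methods name several kinds of control over its experiments (some induced with tamoxifen, some given an isotype antibody) without saying which applied to these Ctrl libraries.

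Counts of unique molecular identifiers (UMIs) were summed over the nuclei of a class and scaled to the UMI total of that class as CPM. Intervals are exact 95% Poisson intervals of a level, or exact conditional binomial 95% intervals of a log2 ratio, and they cover counting error only. Libraries held 64798965 to 140310354 UMIs, and 61329 nuclei were kept, 12280 of them fibroblast-like. In Ctrl, ADWA11 and Tgfbr2-cKO the fibroblasts numbered 1810, 2456 and 297 at 7 dpi, and 4114, 2738 and 865 at 21 dpi. In those nuclei Tgfbr2 itself stood at 318, 245 and 234 CPM at 7 dpi and at 222, 193 and 184 CPM at 21 dpi, in the same order. The deposited counts do not say which part of the gene a UMI came from, so they check the deletion poorly. Of 61455 barcode sequences, 459 occurred in 2 or more libraries. Neuron markers summed to 170 CPM in the fibroblasts of Tgfbr2-cKO at 7 dpi and to 57.6 CPM at 21 dpi, against at most 7.14 CPM in the other libraries. Oligodendrocyte markers summed to 91.5 and 138 CPM there, against at most 29.1 CPM, and the astrocyte list to 1084 and 1050 CPM, against 449.5 to 1027 CPM. The part of such RNA in the values below was not tested. All 6 neuron and all 6 oligodendrocyte markers had UMIs in both Tgfbr2-cKO libraries. The 7 fibroblast markers summed to 7916, 5899 and 4393 CPM at 7 dpi in the fibroblasts of Ctrl, ADWA11 and Tgfbr2-cKO. At 21 dpi they summed to 6144, 4859 and 1611 CPM. Whether this reflects less marker RNA per fibroblast or a different mix of nuclei was not tested.

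Most members lie next to another member (GRCm38, GENCODE M21). Dcn (chr10:97479609-97518143) and Lum (chr10:97565128-97572703) are neighbours, as are Prelp (chr1:133910304-133921414) and Fmod (chr1:134037254-134048277). Aspn (chr13:49544443-49567565), Omd (chr13:49582462-49592822) and Ogn (chr13:49608046-49624501) follow each other on the + strand, inside Cenpp on the other strand. Bgn is on the X chromosome (chrX:73483602-73495933). Podn (chr4:108014791-108096445) overlaps Scp2 on the same strand, so its UMIs are uncertain. Promoters were found in the RefSeq table (GRCm38.p6) for 7 of the 9 members, and Dcn and Lum had no entry. The 250 bases before the start of 5 of them are shown because the results below turn on them. Bgn and Aspn were lower in Tgfbr2-cKO at 21 dpi, and Omd and Ogn, which follow Aspn, were higher. Neither of the latter was 2 times higher (log2 ratios 0.92 and 0.43), and Omd was higher in female (1.52) but not in male nuclei (-0.06). Fmod was lower in Tgfbr2-cKO at 7 dpi. Capitals mark CAGAC, the core letters bound by SMAD proteins, and its reverse complement GTCTG.
Fmod (chr1:134037004-134037253, + strand): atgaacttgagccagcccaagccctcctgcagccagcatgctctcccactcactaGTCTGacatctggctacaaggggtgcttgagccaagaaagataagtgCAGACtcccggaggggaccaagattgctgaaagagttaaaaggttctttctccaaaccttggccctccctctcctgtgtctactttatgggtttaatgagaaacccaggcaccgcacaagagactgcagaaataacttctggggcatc
Bgn (chrX:73483351-73483600, + strand): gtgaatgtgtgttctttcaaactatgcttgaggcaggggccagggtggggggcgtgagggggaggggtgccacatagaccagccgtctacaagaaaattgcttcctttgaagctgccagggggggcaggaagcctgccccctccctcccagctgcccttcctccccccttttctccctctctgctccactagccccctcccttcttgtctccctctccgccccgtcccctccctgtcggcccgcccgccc
Aspn (chr13:49544193-49544442, + strand): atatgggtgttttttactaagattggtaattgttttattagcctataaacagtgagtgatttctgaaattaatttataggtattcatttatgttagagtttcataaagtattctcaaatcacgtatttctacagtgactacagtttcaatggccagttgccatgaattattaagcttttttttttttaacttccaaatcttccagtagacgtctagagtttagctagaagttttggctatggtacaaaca
Ogn (chr13:49607765-49608014, + strand): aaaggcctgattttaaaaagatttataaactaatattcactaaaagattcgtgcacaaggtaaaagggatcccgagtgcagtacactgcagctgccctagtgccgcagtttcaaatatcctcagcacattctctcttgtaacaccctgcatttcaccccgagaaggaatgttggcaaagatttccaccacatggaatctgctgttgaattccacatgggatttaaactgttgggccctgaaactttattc
Omd (chr13:49582212-49582461, + strand): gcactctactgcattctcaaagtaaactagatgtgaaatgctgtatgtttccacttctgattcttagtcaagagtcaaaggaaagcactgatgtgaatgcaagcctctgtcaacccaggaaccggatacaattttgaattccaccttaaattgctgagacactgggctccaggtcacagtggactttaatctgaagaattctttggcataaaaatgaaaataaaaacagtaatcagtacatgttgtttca
The motif was searched on both strands, and it stood 2 times before Fmod, 1 time before Prelp and in none of the windows of Bgn, Ogn, Aspn, Omd and Podn. It was present in 11380 of 27025 promoters of that length, 42.1%. The members that were lower in Tgfbr2-cKO thus included windows with and without these letters.

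Dcn, the prototype of the family, was mainly a fibroblast transcript. It stood in fibroblasts at 463, 552 and 383 CPM at 7 dpi in Ctrl, ADWA11 and Tgfbr2-cKO, and at 536, 536 and 359 CPM at 21 dpi. Levels of different genes are not compared with each other, as counts from 3′ libraries are not per length. Fibroblasts accounted for 71.6 to 86.6% of all Dcn UMIs of a library, while they were 2.81 to 31.8% of its nuclei. Tgfbr2-cKO had the lowest Dcn level of its day at both times.

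Aspn, which can bind collagen, was higher in mural-like nuclei (pericytes and smooth muscle of vessels) than in fibroblasts. At 7 dpi its mural level was 158 CPM in Ctrl and 195 CPM in ADWA11, and 63.0 CPM in Tgfbr2-cKO, where it rested on 39 nuclei and 8 UMIs. At 21 dpi it was 193, 238 and 160 CPM. Fibroblasts stood at 35.8, 26.6 and 13.2 CPM at 7 dpi and at 26.1, 14.2 and 3.70 CPM at 21 dpi, and the intervals of the 2 classes did not overlap in any library. In Tgfbr2-cKO at 21 dpi, mural-like nuclei held 42.5% of the Aspn UMIs of the library and fibroblasts 24.2%. Per 100 UMIs of Dcn, mural-like nuclei of that library had 340 of Aspn and fibroblasts 1.03. The mural-like cluster held 510 nuclei, 13.3% of them called doublets. Beside its mural markers it raised the endothelial markers Pecam1, Flt1, Kdr, Tie1, Egfl7 and Cldn5.

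Bgn, a ligand of Toll-like receptors when soluble, was shared by both classes. Mural-like nuclei held 212, 174 and 205 CPM at 7 dpi and 180, 247 and 119 CPM at 21 dpi. The order of the classes turned with the library, since fibroblasts were above mural-like nuclei in Ctrl at 7 dpi (276 CPM) and below them in both ADWA11 libraries and in Tgfbr2-cKO at 21 dpi. In Ctrl at 21 dpi (178 to 188 CPM in fibroblasts, 149 to 215 CPM in mural-like nuclei) and in Tgfbr2-cKO at 7 dpi (108 to 139 and 134 to 300 CPM) the intervals overlapped. Endothelial-like nuclei held 90.9, 48.5 and 5.10 CPM at 7 dpi and 113, 114 and 78.5 CPM at 21 dpi.

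Prelp, a heparin- and collagen-binding member that anchors basement membranes, was found in astrocyte-like nuclei at 21 dpi. Its astrocyte level was 14.6 CPM in Ctrl on 111 UMIs, 20.5 CPM in ADWA11 on 57 and 14.0 CPM in Tgfbr2-cKO on 107. At 7 dpi it was 0.780, 1.22 and 1.76 CPM, on 1 to 4 UMIs. At 21 dpi these values lay close to those of fibroblasts, which were 12.3, 15.0 and 12.8 CPM, and astrocyte-like nuclei held 44.8% of the Prelp UMIs of the Tgfbr2-cKO library. Myeloid-like nuclei of the same libraries held 1.86, 2.24 and 0.40 CPM, and oligodendrocyte-like nuclei 3.69 CPM in Ctrl and 1.28 CPM in Tgfbr2-cKO, on 3 and 6 UMIs.

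Some UMIs of each member in other classes may be RNA free in the suspension, so myeloid-like nuclei are given beside the fibroblasts. Whether myeloid cells express some members themselves was not tested. In Ctrl at 7 and 21 dpi, Bgn stood at 36.6 and 36.1 CPM in myeloid-like nuclei, while Dcn stood at 14.3 and 66.5 CPM. A level with the myeloid level subtracted may therefore take away more than free RNA. In Ctrl at 21 dpi, 80.0% of fibroblasts (median 6992 UMIs per nucleus) and 23.3% of myeloid-like nuclei (median 4212) had a Dcn UMI. In Tgfbr2-cKO at 21 dpi the shares were 64.2% (median 8003) and 5.07% (median 5190). With nuclei thinned to 2000 UMIs, fibroblasts and myeloid-like nuclei stood at 51.8% and 11.4% in Ctrl and at 38.0% and 1.71% in Tgfbr2-cKO. The myeloid level thus differed between libraries, with Dcn at 66.5, 40.4 and 9.77 CPM at 21 dpi and 14.3, 16.3 and 2.63 CPM at 7 dpi in Ctrl, ADWA11 and Tgfbr2-cKO. As a percentage of the fibroblast level it ran from 0 for Fmod and Prelp in Tgfbr2-cKO at 7 dpi to 39.6% for Lum in Ctrl at 21 dpi. Lum stood at 17.1 UMIs per 100 of Dcn in the fibroblasts of that library, at 54.6 in its myeloid-like, 41.9 in its astrocyte-like and 48.0 in its endothelial-like nuclei. In these other classes the ratio of the pair was thus above that of the fibroblast nuclei. How much of it was free RNA was not tested.

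Podn was also found in neuron-like nuclei. The Tgfbr2-cKO libraries had 4.81 CPM of it in these nuclei at 7 dpi and 6.91 CPM at 21 dpi, the latter above the myeloid level at 21 dpi of 1.92 CPM, and at 7 dpi 88.2% of all Podn UMIs came from its 5943 neuron-like nuclei. Dcn stood at 1.48 and 6.98 CPM in the same nuclei. Whether these UMIs belong to the overlapping Scp2 was not tested.

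**Figure D1:**
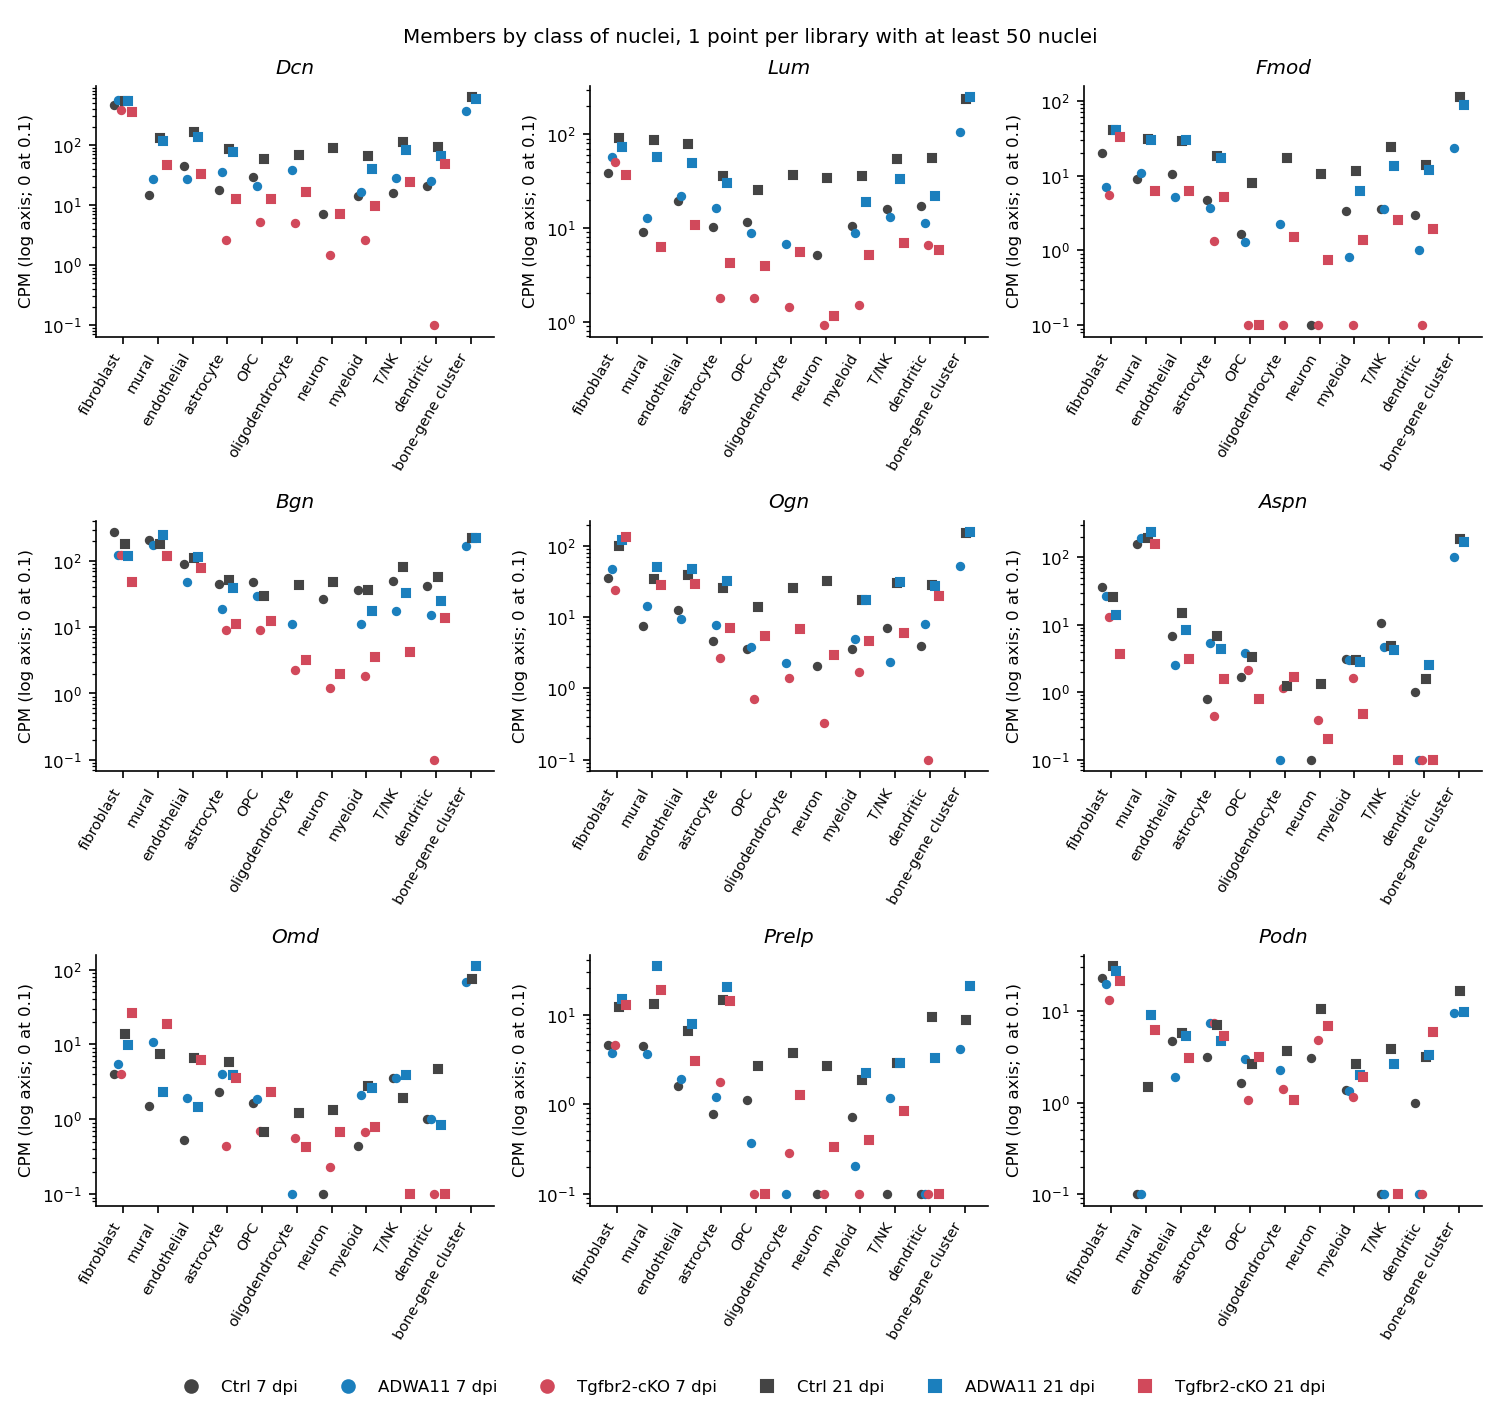
CPM of each member (log axis, values of 0 drawn at 0.1) by class of nuclei, with 1 point for each library of at least 50 nuclei in the class, circles for 7 dpi and squares for 21 dpi. Fibroblasts were above the other named classes for most members, while Aspn stood at 158 to 238 CPM in mural-like nuclei and Prelp at 14.0 to 20.5 CPM in astrocyte-like nuclei at 21 dpi.

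Clustering without the members among the variable genes split the fibroblasts into sub-clusters that differed in which member they held. Sub-cluster F1 was named myofibroblast-like from Cthrc1, Acta2, Postn, Fn1, Tagln and Tnc, and it made up 55.9, 49.2 and 41.4% of fibroblasts at 7 dpi in Ctrl, ADWA11 and Tgfbr2-cKO. F2 was late inner-like (Fgf13, Cdh18, Sema3c), F3 and F6 were arachnoid-like, and F8 was proliferating-like. F0, led by Slc47a2 and Slc47a1, F4, which raised 3 pial (Lama1, Lamc3, Rdh10) and 3 arachnoid markers (Slc22a6, Slc6a13, Aldh1a2), and F7, led by Gabrg3 and Ebf3, stayed unnamed. Since the sub-clusters were made from the same nuclei, their levels are a description with no test.

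Bgn and Aspn were highest in the myofibroblast-like, proliferating-like and late inner-like sub-clusters. In Ctrl at 7 dpi Bgn stood at 407 CPM in F2, 368.5 CPM in F8 and 323 CPM in F1. Pooled over libraries it stood at 40.6 to 55.7 CPM in the arachnoid-like F3 and F6 and in F7. Aspn stood at 75.9 CPM in F2 and 32.1 CPM in F1, and at 0.930 to 4.45 CPM in F3, F4 and F6. Fmod, which shares collagen binding sites with lumican, was highest in F2 as well, at 76.9 CPM against at most 31.4 CPM in any other sub-cluster.

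Pooled over libraries, Dcn was highest in F4 (918 CPM) and the arachnoid-like F6 (833 CPM), although in Ctrl at 7 dpi F6 (968 CPM) was above F4 (732 CPM), and it was between 297.5 and 484 CPM in the other sub-clusters. Over the 26 sums of 1 sub-cluster in 1 library with at least 50 nuclei, Pearson's r of log2(CPM + 1) was 0.71 for Bgn with Aspn, the highest of the 36 pairs, and -0.63 for Dcn with Podn and -0.59 for Dcn with Aspn, the lowest ones. These sums share libraries and sub-clusters, so r is a description.

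Omd, a keratan sulphate member best known from bone, was highest in the arachnoid-like F3 with 34.9 CPM, against 3.53 to 14.0 CPM in the other sub-clusters. Ogn, a corneal and bone matrix member, was spread over F0 (113.5 CPM), F2 (119.9 CPM), F3 (118 CPM) and F7 (113 CPM), and low in F4 (19.8 CPM) and F8 (18.8 CPM). Lum stood at 94.3 CPM in F2, 80.2 CPM in F0 and 75.7 CPM in F4 when pooled, but at 21 dpi F4 was above both in Ctrl, at 152.5 CPM against 100.5 CPM in F2 and 91.2 CPM in F0, and under ADWA11, at 104 against 57.9 and 77.6 CPM. Podn, which is known to restrain smooth muscle growth, was highest in F2 (37.9 CPM) and F0 (32.5 CPM).

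**Figure D2:**
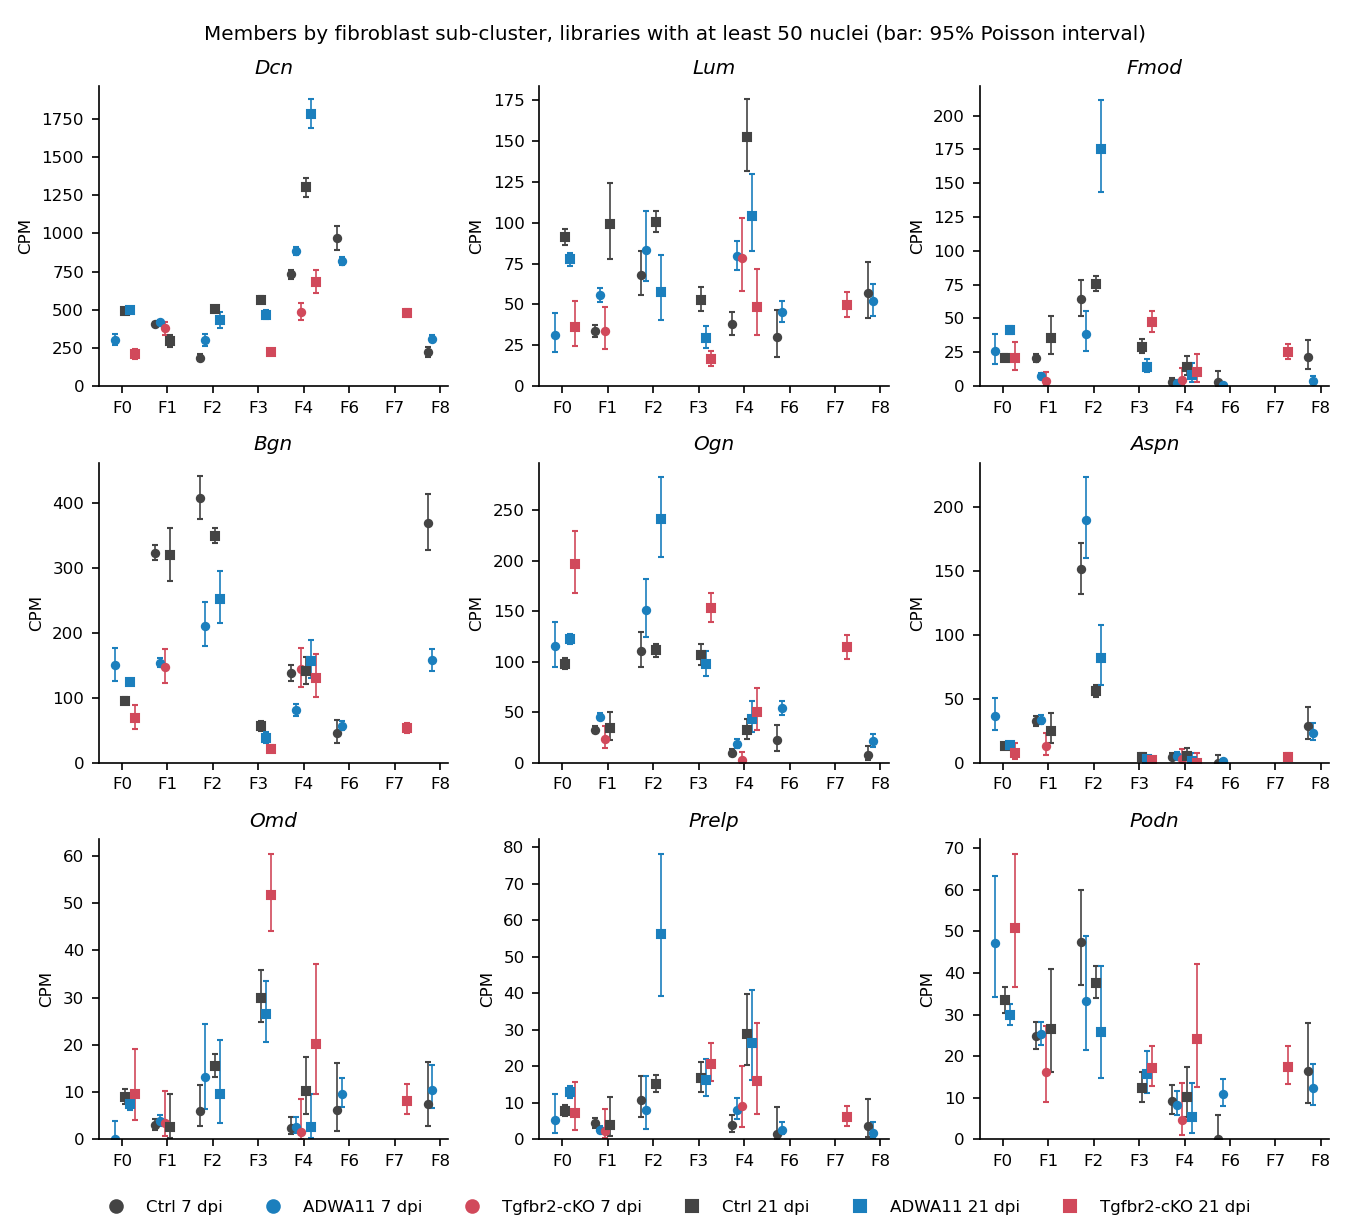
CPM of each member in fibroblast sub-clusters, with 1 point for each library of at least 50 nuclei in the sub-cluster and the 95% Poisson interval as bar. Bgn and Aspn stood highest in F2, Dcn in F4 and F6, and Omd in F3.

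The first question was how the group differed between the early and the late Ctrl lesion. Lum was at 38.1 CPM at 7 dpi and 91.7 CPM at 21 dpi, a log2 ratio of 1.27 (1.14 to 1.39). Fmod went from 19.98 to 40.2 CPM (1.01), Ogn from 35.9 to 98.5 CPM (1.46), Omd from 4.01 to 13.8 CPM (1.79) and Prelp from 4.63 to 12.3 CPM (1.40). Bgn and Aspn were lower at 21 dpi, at 183 against 276 CPM (-0.59) and at 26.1 against 35.8 CPM (-0.46). So 5 of 9 members were at least 2 times higher at 21 dpi, against 14.2% of the 17270 genes tested, and none was as much lower, against 6.83% of genes. Fmod lay at the cut, and the count was 4 in female nuclei and 3 with the myeloid level subtracted. The median over the members was 1.01, against 0.09 over all genes tested.

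The 2 Ctrl libraries differed in their sub-clusters, since F1 was 55.9% of fibroblasts at 7 dpi and 1.82% at 21 dpi, while F0 went from 2.49 to 45.2% and F2 from 9.83 to 32.0%. With the shares of F1, F2 and F4 held at those of 7 dpi, the median was 0.27. Ogn then stood at 0.24, Fmod at 0.72 and Omd at 0.88, so these 3 were no longer 2 times higher, while Lum stayed at 1.55 and Prelp at 1.16. Bgn stood at -0.04 and Aspn at -0.70. These sub-clusters covered 87.4% of the fibroblast UMIs at 7 dpi and 39.7% at 21 dpi. Within F4, Lum was at 37.8 and 152.5 CPM (2.01), Prelp at 3.97 and 28.9 CPM (2.87) and Dcn at 732 and 1302 CPM (0.83). Ogn (1.76, 1.05 to 2.48), Omd (2.06, 0.68 to 3.54) and Fmod (2.21, 1.01 to 3.48) were also more than 2 times higher inside F4, and Omd inside F2 (1.36). Fmod in F4 rested on 10 and 18 UMIs, at 3.05 and 14.1 CPM, where myeloid-like nuclei held 3.33 and 11.6 CPM. At 7 dpi it was thus not above the myeloid level, and no subtracted ratio could be formed. With that level subtracted, Ogn stood at 1.33 and Omd at 1.88 in F4. Within F1, Lum was at 33.4 and 99.2 CPM (1.57), while Dcn was lower, at 404 and 294 CPM (-0.46, -0.66 to -0.27), and Prelp was at -0.13 on 3 UMIs at 21 dpi. Within F2, Dcn was at 185 and 504 CPM (1.44) and Lum at 68.2 and 100.5 CPM (0.56), while Aspn was lower, at 151 and 55.8 CPM (-1.44, -1.66 to -1.21). The myeloid level of Lum also went from 10.4 to 36.3 CPM, and with it subtracted Lum stood at 2.08 in F4, 1.45 in F1 and 0.15 in F2.

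Deletion of Tgfbr2 in fibroblasts went with lower Bgn, Aspn and Fmod at 7 dpi. Bgn was at 276 CPM in Ctrl and 123 CPM in Tgfbr2-cKO (log2 ratio -1.17, -1.36 to -0.98), Aspn at 35.8 and 13.2 CPM (-1.44, -2.07 to -0.88) and Fmod at 19.98 and 5.56 CPM on 11 UMIs (-1.84, -2.86 to -0.99). Podn was at 23.0 and 13.2 CPM (-0.81) and Ogn at 35.9 and 23.8 CPM (-0.59), but in female nuclei alone they stood at 0.10 and -0.05 and in male nuclei at -2.27 and -1.53. Lum was at 38.1 and 50.6 CPM (0.41), and Omd (0.01, -1.26 to 1.08) and Prelp (-0.03, -1.21 to 0.98) had wide intervals around 0, and no difference was detectable at this depth. Thus 3 of 9 members were at least 2 times lower, against 4.92% of 14824 genes, and none was as much higher, against 8.82%. The median over members was -0.59, against 0.09 over all genes tested. With the myeloid level subtracted, 2 members were as much lower. Leaving out the 5 nuclei that held most UMIs of each gene gave 7 and a median of -1.39, but this takes a larger share of 297 nuclei than of 1810, so it lowers the Tgfbr2-cKO level by construction.

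The lower levels of Bgn, Aspn and Fmod were also seen inside the myofibroblast-like F1. There Bgn stood at 323 CPM in Ctrl and 147 CPM in Tgfbr2-cKO (-1.14), Aspn at 32.7 and 12.8 CPM (-1.35), and Fmod at 20.6 CPM and 3 UMIs (-2.56, -4.85 to -0.99). In F4, no difference in Bgn was detectable, at 138 and 144 CPM (0.07, -0.27 to 0.39), while Dcn was at 732 and 487 CPM (-0.59, -0.76 to -0.42) and Lum at 37.8 and 78.1 CPM (1.05, 0.55 to 1.53). With the myeloid level subtracted, Bgn stood at 101 and 142 CPM in F4 (0.49) and at a ratio of -0.98 in F1. With shares of F1 and F4 held at those of Ctrl the median was -0.56, and Bgn, at -0.91, was no longer 2 times lower, while Aspn stood at -1.30 and Fmod at -2.08. All values of this comparison rest on 297 Tgfbr2-cKO nuclei. In nuclei without any neuron or oligodendrocyte marker UMI, 67 of them in Tgfbr2-cKO, Fmod was at -1.34, Aspn at -1.22 and Bgn at -1.14, Podn at 0.04 and the median at -0.13.

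At 21 dpi the group split in Tgfbr2-cKO. Aspn was at 26.1 CPM in Ctrl and 3.70 CPM in Tgfbr2-cKO (-2.82, -3.40 to -2.28), Bgn at 183 and 47.5 CPM (-1.94, -2.10 to -1.79) and Lum at 91.7 and 36.4 CPM (-1.33, -1.51 to -1.16). Dcn was at 536 and 359 CPM (-0.58). Lum was at -2.32 in female and -0.64 in male nuclei. Aspn was at -4.72 in female nuclei, on 3 Tgfbr2-cKO UMIs, and at -2.27 in male nuclei. On the other side, Omd was at 13.8 and 26.2 CPM (0.92, 0.67 to 1.16), from 1 of 2 mice (1.52 in female and -0.06 in male nuclei). Ogn was at 98.5 and 133 CPM (0.43, 0.33 to 0.54). Omd lies next to Aspn, and Ogn next to Omd. Fmod, with the lowest ratio at 7 dpi, was at 40.2 and 32.4 CPM (-0.31) and Prelp at 12.3 and 12.8 CPM (0.06, -0.28 to 0.38). So 3 of 9 members were at least 2 times lower, against 8.19% of 17101 genes, and none as much higher, against 9.44%. The median was -0.54, against -0.01 over all genes tested.

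The sub-clusters of these 2 libraries differed. F2, the state with most Bgn and Aspn, was 32.0% of Ctrl fibroblasts and held 0 of 865 Tgfbr2-cKO nuclei, which allows a share of up to 0.347%, while F3 was 15.0 and 45.8% and F7 0 and 35.4%. With the shares of F0, F3 and F4 held at those of Ctrl, which covered 63.4% of Ctrl and 56.3% of Tgfbr2-cKO fibroblast UMIs, the median was -0.06. Bgn then stood at -0.51 in place of -1.94, Aspn at -0.90 in place of -2.82 and Podn at 0.61 in place of -0.54, while Dcn stood at -1.21 in place of -0.58 and Ogn at 0.90 in place of 0.43. Omd stood at 0.51 in place of 0.92, and Fmod turned from -0.31 to 0.19.

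Inside sub-clusters Dcn was lower in all 3 that could be compared. It was at 493 and 210.5 CPM in F0 (-1.23), at 566 and 221 CPM in F3 (-1.36) and at 1302 and 681 CPM in F4 (-0.94). Lum was lower in the same 3, at 91.2 and 36.3 CPM (-1.33), 53.0 and 16.5 CPM (-1.68) and 152.5 and 48.3 CPM (-1.66), and with the myeloid level subtracted its ratios were -0.82, -0.55 and -1.43. Ogn was at 98.0 and 197 CPM in F0 (1.01, 0.77 to 1.24) and at 107 and 153 CPM in F3 (0.52, 0.33 to 0.71), and in F4 its interval held 0 (0.65, -0.13 to 1.40). The Tgfbr2-cKO values of F0 rest on 83 nuclei, 53 of them male and 23 female. Male nuclei held 124 of the 163 Ogn UMIs there, at 246 CPM. Omd was at 29.99 and 51.8 CPM in F3 (0.79, 0.44 to 1.14). Fmod was higher in F3 too, at 29.2 and 47.3 CPM (0.69, 0.33 to 1.06), and Podn in F0, at 33.4 and 50.8 CPM (0.60, 0.11 to 1.06), although both were lower over all fibroblasts. The F3 level of Fmod in Tgfbr2-cKO was 66.1 CPM in female and 26.9 CPM in male nuclei. Only the female level was above the 29.2 CPM of all Ctrl F3 nuclei. Ctrl F3 nuclei were not split by sex, so whether Fmod was higher there in both mice was not tested. Bgn was lower in F3 (56.2 and 21.7 CPM, -1.37), less so in F0 (95.4 and 68.9 CPM, -0.47) and not detectably in F4 (-0.11, -0.54 to 0.31). With the myeloid level subtracted, Bgn stood at 0.14, -0.16 and 0.28 in F0, F3 and F4, so its direction inside F0 and F4 turned.

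The F7 nuclei, 306 of them in Tgfbr2-cKO at 21 dpi, held Dcn at 478 CPM, Ogn at 114 CPM, Bgn at 52.8 CPM and Aspn at 4.84 CPM. They were also the sub-cluster in which the oligodendrocyte markers Mbp, Mog, Mag and Mobp and the mural markers Rgs5, Abcc9 and Notch3 were raised. F3, the other large sub-cluster of that library, raised the astrocyte markers Gfap, Aldh1l1, Aqp4, Slc1a2 and Slc1a3 beside those of arachnoid cells, and the part of such RNA in these levels was not tested.

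**Figure D3:**
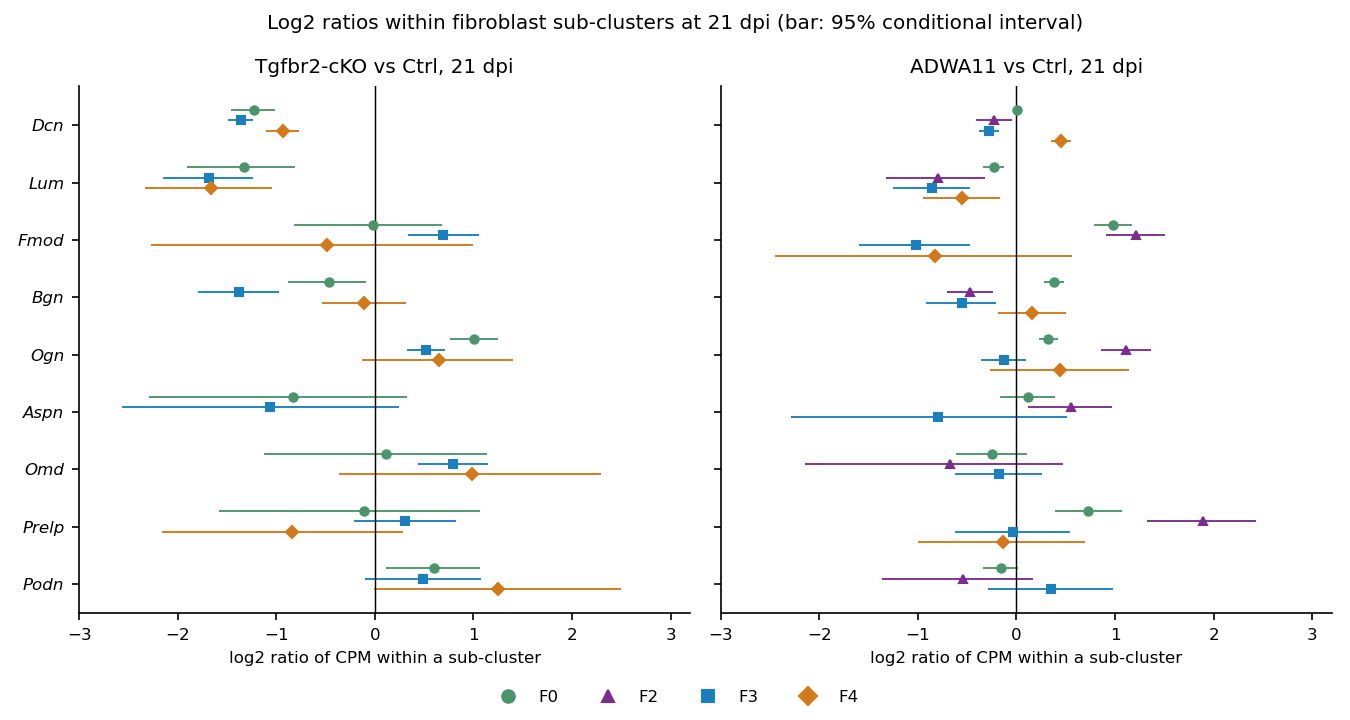
Log2 ratios of member CPM inside fibroblast sub-clusters at 21 dpi, Tgfbr2-cKO against Ctrl on the left and ADWA11 against Ctrl on the right, with exact conditional 95% intervals as bars, and without ratios against a count of 0 or beyond the axis. Dcn and Lum were below 0 in each of the 3 sub-clusters under Tgfbr2-cKO, and Ogn was above 0 in F0 and F3. F0 rests on 83 Tgfbr2-cKO nuclei, 53 of them male and 23 female.

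ADWA11 at 7 dpi went with lower Bgn and Fmod. Bgn was at 276 CPM in Ctrl and 125 CPM in ADWA11 (-1.14, -1.21 to -1.08) and Fmod at 19.98 and 6.94 CPM (-1.52, -1.80 to -1.25). Aspn was at 35.8 and 26.6 CPM (-0.43), whereas Lum was at 38.1 and 56.9 CPM (0.58), Ogn at 35.9 and 47.3 CPM (0.40) and Dcn at 463 and 552 CPM (0.25). So 2 of 9 members were at least 2 times lower, against 3.1% of 16792 genes, and none as much higher, against 7.0%. The median was -0.21, against 0.08 over all genes tested. Both 7 dpi comparisons used the same Ctrl library, so their likeness is no independent repeat.

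Bgn was lower under ADWA11 in 4 of the 5 sub-clusters compared, at 323 and 153 CPM in F1 (-1.08), 407 and 211 CPM in F2 (-0.95), 138 and 80.4 CPM in F4 (-0.77) and 369 and 158 CPM in F8 (-1.23). The ADWA11 values of F2 rest on 79 nuclei, 67 of them female and 5 male, so mainly on 1 mouse. In the arachnoid-like F6 Bgn was low in both, at 45.7 and 57.0 CPM (0.32, -0.24 to 0.93), on 29 UMIs in Ctrl. With the myeloid level subtracted it stood at 9.05 and 45.9 CPM there (2.34), and it stayed below 0 in the other 4. Ogn was higher under ADWA11 in all 5, with ratios from 0.45 in F2 to 1.48 in F8 and no interval holding 0. Its Ctrl values in F6 and F8 rest on 14 and 6 UMIs. Lum was higher in F1 (0.74) and F4 (1.07). Aspn did not differ detectably in F1 (32.7 and 33.7 CPM, 0.04, -0.17 to 0.26) and its lower level over all fibroblasts turned to 0.16 with shares held, where F2, its main state, had gone from 9.83 to 3.22% of fibroblasts and F6, almost without Aspn, from 4.59 to 19.2%. The median with shares held was 0.15.

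At 21 dpi ADWA11 fibroblasts were close to Ctrl in most members. Dcn was at 536 CPM in both (0.00, -0.03 to 0.03) and Fmod at 40.2 and 40.6 CPM (0.02, -0.11 to 0.14). Aspn was at 26.1 and 14.2 CPM (-0.88), Bgn at 183 and 119.8 CPM (-0.61), Omd at 13.8 and 9.78 CPM (-0.50) and Lum at 91.7 and 72.7 CPM (-0.34). Ogn was at 98.5 and 119.7 CPM (0.28) and Prelp at 12.3 and 15.0 CPM (0.29). None of the 9 was 2 times higher or lower, against 4.07 and 3.88% of 17712 genes, and the median was -0.18, against 0.01 over all genes tested.

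Inside sub-clusters the members differed more. F2 was 32.0% of Ctrl and 3.54% of ADWA11 fibroblasts, and F0 45.2 and 77.9%. Fmod was at 20.9 and 41.1 CPM in F0 (0.98, 0.78 to 1.18) and at 75.6 and 175 CPM in F2 (1.21, 0.91 to 1.503), and lower in F3 (29.2 and 14.4 CPM, -1.02). Prelp was at 15.1 and 56.3 CPM in F2 (1.89, 1.32 to 2.43) and at 7.81 and 12.9 CPM in F0 (0.73), and Ogn at 111 and 241 CPM in F2 (1.11). With shares held, Fmod stood at 1.02, Prelp at 1.21, Ogn at 0.63 and Aspn at 0.43, and the median of all 9 was -0.05. Bgn, lower over all fibroblasts, was higher in F0, at 95.4 and 124 CPM (0.38, 0.28 to 0.48), lower in F2 (-0.47) and F3 (-0.56), and at -0.18 with shares held. With the myeloid level subtracted, Bgn stood at 0.85 in F0 and 0.04 in F3, so its lower level in F3 was not kept, and Fmod stood at 1.91 in F0. The ADWA11 values of F2 rest on 97 nuclei.

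**Figure D4:**
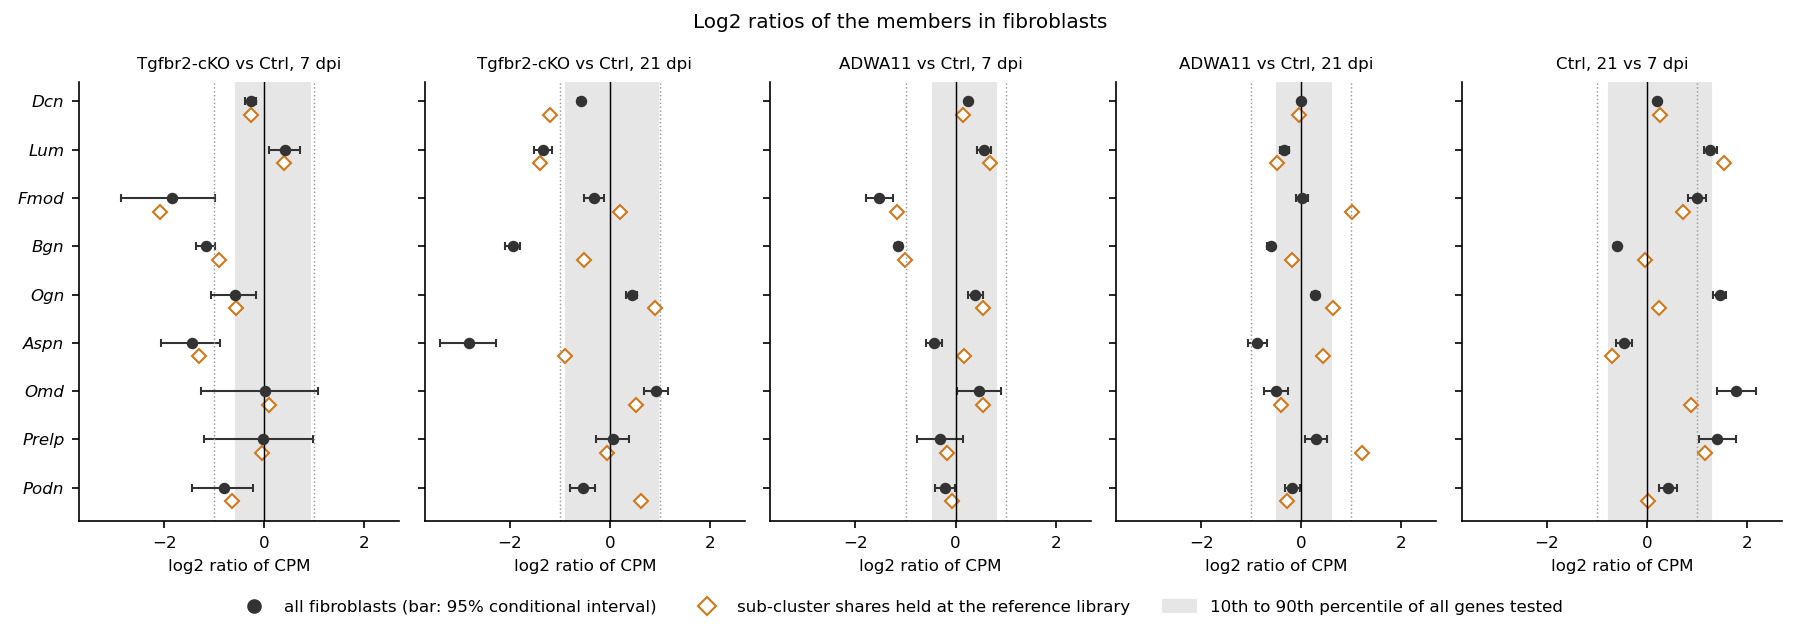
Log2 ratios of member CPM over all fibroblasts (points, with exact conditional 95% intervals) and with sub-cluster shares held at the reference library (diamonds) in the 5 comparisons, with the range from the 10th to the 90th percentile of all genes tested in grey. Under Tgfbr2-cKO at 21 dpi, Aspn stood at -2.82 and -0.90 and Bgn at -1.94 and -0.51 by the 2 measures.

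**Figure D5:**
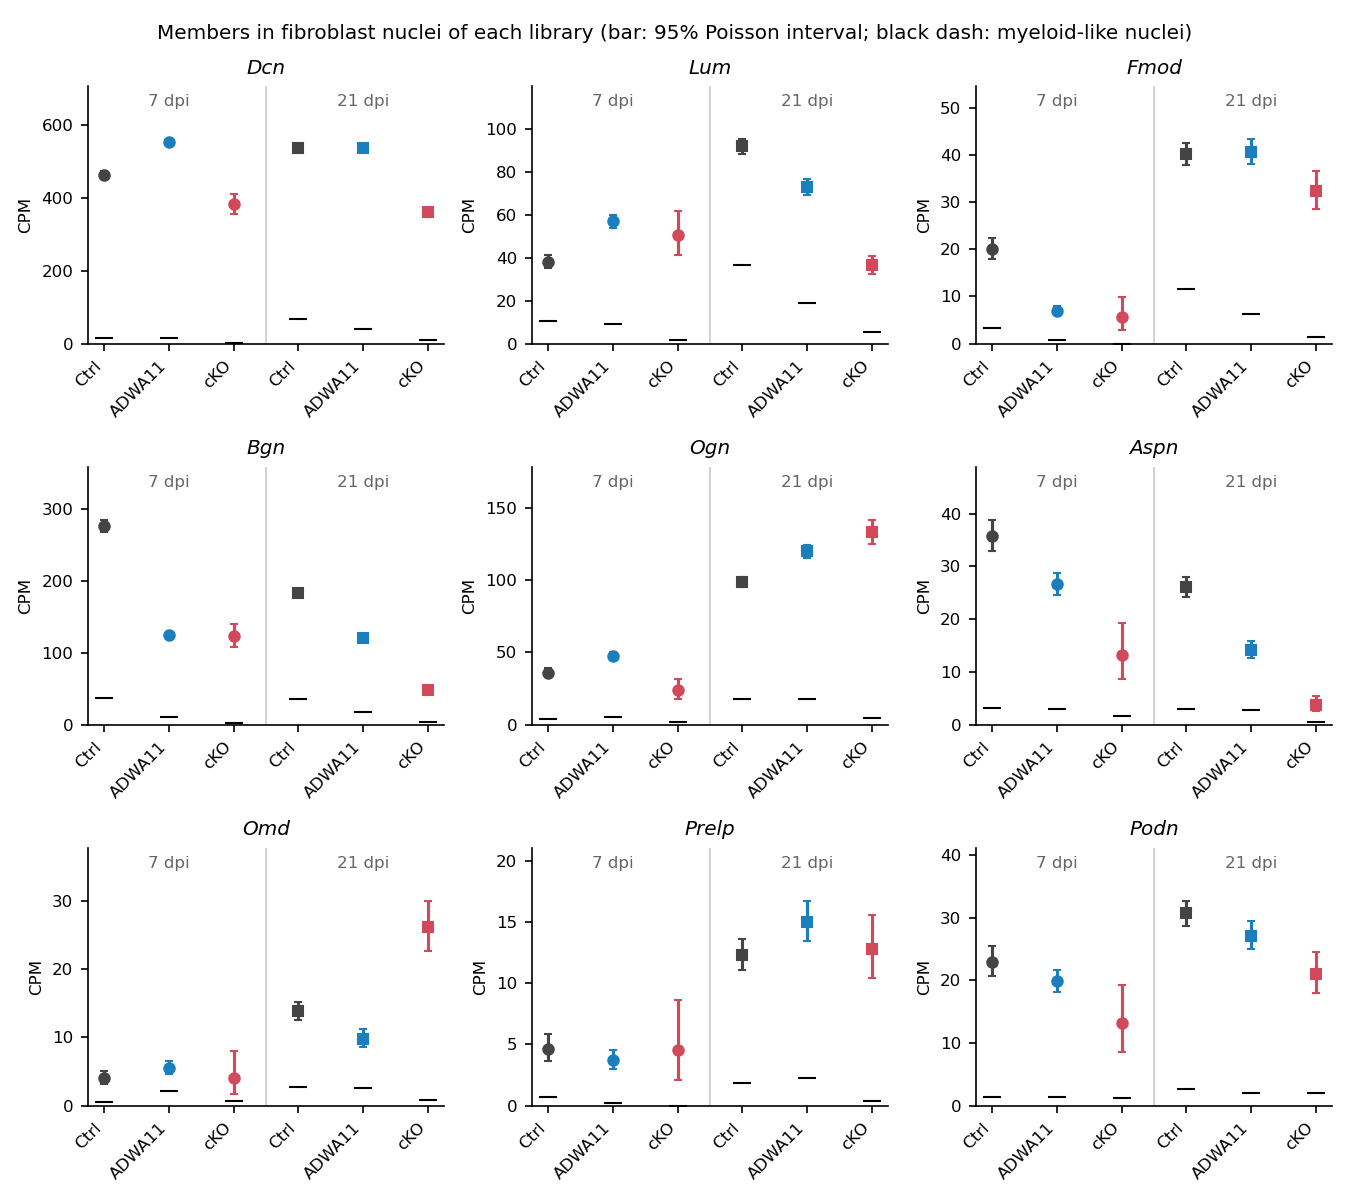
CPM of each member in the fibroblasts of the 6 libraries (points, with 95% Poisson intervals) and in the myeloid-like nuclei of the same library (dashes). Bgn and Aspn were highest in Ctrl at both times, Ogn was highest in Tgfbr2-cKO at 21 dpi, and the myeloid level was below the fibroblast level in all 6 libraries for each of the 9 members.

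The 2 mice of a library could be told apart in part by sex. In Tgfbr2-cKO at 21 dpi, Omd stood at 41.3 CPM in female and 13.0 CPM in male fibroblasts, against 14.4 and 13.6 CPM in Ctrl, so its higher level was seen in 1 of 2 mice (1.52 and -0.06). In F3 alone Omd was at 72.9 CPM in female and 26.9 CPM in male nuclei. Fmod stood at 44.9 and 22.2 CPM in the same mice (0.22 and -1.01 against Ctrl), and Lum at 19.9 and 51.6 CPM (-2.32 and -0.64). Bgn, which is X-linked, was lower in both, at 46.4 and 48.8 CPM against 159 and 221 CPM in Ctrl, and Dcn was lower in both (-0.77 and -0.40). Ratios of both mice had the same sign for 6 members in the early and 7 in the late Tgfbr2-cKO comparison, for 7 in each ADWA11 comparison, and 9 between the Ctrl times.

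Other genes of the same matrix were read from fixed lists, and their counts can be read against the shares of all genes tested that were 2 times higher or lower. For the early Tgfbr2-cKO library these were 8.82 and 4.92%, for the late one 9.44 and 8.19%, and then 7.0 and 3.1% under ADWA11 at 7 dpi, 4.07 and 3.88% at 21 dpi, and 14.2 and 6.83% over Ctrl time. Of 13 fibril proteins that these proteoglycans bind, 4 were at least 2 times lower in the early Tgfbr2-cKO library and 7 in the late one, and none as much higher. Col1a1, Col1a2, Col3a1, Col5a1 and Col6a3 of this list were also markers that named the fibroblasts, and Fn1 was one that named F1. The list is thus not independent of the naming. Col1a2, a chain of type I collagen, was at 3067 CPM in Ctrl and 1084 CPM in Tgfbr2-cKO at 7 dpi (-1.4998), Col1a1 was at 935 and 144 CPM at 21 dpi (-2.70), and the fibril-associated Col14a1 was at 492 and 72.8 CPM at 21 dpi (-2.76). Under ADWA11, 1 and 2 of the 13 were as much lower, led by Eln, the elastin gene, at 1097 and 58.8 CPM at 7 dpi (-4.22) and 209 and 23.1 CPM at 21 dpi (-3.18). The list medians were -0.72 and -1.67 under Tgfbr2-cKO and -0.51 and -0.44 under ADWA11, all below the medians of the genes tested.

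Among 11 proteases that cut these proteoglycans or their partners, Mmp3, a stromelysin that cleaves decorin, was higher in each contrast with Ctrl. At 7 dpi it was at 9.58, 119 and 90.5 CPM in Ctrl, ADWA11 and Tgfbr2-cKO, and the 21 dpi values were 22.1, 189.8 and 118 CPM. Mmp13, a collagenase that cleaves fibromodulin, was at 84.8 CPM in Ctrl at 21 dpi, 188 CPM under ADWA11 (1.15) and 26.4 CPM in the Tgfbr2-cKO library (-1.68). In counts, 2 of the 10 tested were at least 2 times higher and 0 lower in Tgfbr2-cKO at 7 dpi, 1 and 1 of 9 at 21 dpi, and under ADWA11 1 and 1 of 10 at 7 dpi and 2 and 0 of 9 at 21 dpi.

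Of the 22 enzymes of chondroitin and dermatan sulphate, Xylt1, which starts the chain on the core protein, was lower in Tgfbr2-cKO than in Ctrl, at 111 against 248 CPM at 7 dpi (-1.16) and 82.7 against 201 CPM at 21 dpi (-1.28). At 21 dpi Csgalnact1, which adds the first chondroitin sugar, was at 64.4 and 160 CPM (1.31) and the sulphotransferase Chst15 at 16.9 and 40.5 CPM (1.26), and in all 2 of 21 tested were at least 2 times higher and 3 lower, among them the dermatan sulphotransferase gene Chst14 at 1.82 and 0.638 CPM (-1.51). At 7 dpi 1 of 19 was higher and 1 lower. Under ADWA11 2 of 21 were higher at 7 dpi, both at or under 1.03 CPM, and 0 of 21 at 21 dpi, with none lower. Of the 10 or 11 keratan sulphate enzymes tested per comparison, of 13, Chst1 alone passed a 2-fold difference against Ctrl, at 2.38 and 6.89 CPM in Tgfbr2-cKO at 21 dpi (1.54). Of the 11 receptors, 10 were tested in the early and all in the late Tgfbr2-cKO library, and none of those did so, while under ADWA11 Cd14 at 7 dpi (0.376 and 1.19 CPM) and Tlr2 at 21 dpi (1.07 and 2.42 CPM) did.

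Of the other 9 genes of the family, 1 of 5 tested was at least 2 times lower in Tgfbr2-cKO at 7 dpi, 1 of 6 at 21 dpi, 0 of 6 and 1 of 8 under ADWA11, and none higher. Ecm2, which precedes Aspn on chromosome 13, was at 17.5 and 40.1 CPM in Ctrl at 7 and 21 dpi (1.19). Chad, a collagen-binding cartilage protein and a leading gene of F2, was at 0.564 and 6.47 CPM in Ctrl at 7 and 21 dpi (3.52), and the 21 dpi level was 0.673 CPM under ADWA11 (-3.27) and 0.511 CPM with Tgfbr2 deleted (-3.66). Podnl1 was at 4.70 and 1.52 CPM in Ctrl and Tgfbr2-cKO at 7 dpi (-1.63), on 3 UMIs in the latter.

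Between the Ctrl times, 4 of 6 of these family genes were at least 2 times higher at 21 dpi and 1 lower, and of the fibril proteins none and 3 of 13. Eln was at 1097 and 209 CPM (-2.39) and Col5a1, a chain of the fibril-nucleating type V collagen, at 242 and 108 CPM (-1.17). Csgalnact1 was at 217 and 64.4 CPM (-1.75) and B3gnt2, which extends keratan sulphate chains, at 68.8 and 166 CPM (1.27), among 2 higher and 2 lower of 21 chondroitin and 1 and 1 of 10 keratan sulphate enzymes. Of 9 proteases 1 was higher (Mmp3, 1.21) and 1 lower (Adamts4, an aggrecanase, -1.18), and of 11 receptors 1 was higher (Cd14, 2.09) and 1 lower (Igf1r, -1.15).

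Over the same 26 sums and 14007 candidate genes, the genes whose log2(CPM + 1) was most like each member are given as a description. Bgn was most like Actn1 (r = 0.95), an actin cross-linker, and Mxra7 and Erg (0.93 each). Aspn was most like Zfhx3 (0.95), the matrix protein gene Thbs2 (0.94) and Runx2 (0.93), a transcription factor of bone. Dcn was most like the metalloreductase gene Steap3 (0.83), Itm2b (0.80) and Mcf2 (0.79), and Lum like Ssr3 (0.77), Slc50a1 (0.76) and Ssh2 (0.75). Fmod was most like Gpx3 (0.86), Cmya5 (0.85) and Ifitm10 (0.82), and Ogn like Lmo4 (0.86), Ntn4 (0.85) and Rassf2 (0.84). Omd was most like Gm16223 (0.78), the potassium channel gene Kcnj13 (0.76) and Ecm2 (0.76), Prelp like Ypel3 (0.82), the clock gene Nr1d2 (0.82) and Gm44759 (0.81), and Podn like Pde11a (0.81), Thbs1 (0.81) and the oestrogen receptor gene Esr1 (0.80).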

How the data were processed

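Nuclei of 6 libraries (1 per group, 2 pooled mice each) were sorted and profiled by droplet snRNA-seq. The deposited counts are whole UMIs per gene and barcode, made by the authors with Cell Ranger on mm10 (7.2.0 per the file headers, 7.1.0 per the submitters' processing notes) and not normalised. Nuclei outside the 2.5 and 97.5 percentiles of UMIs or genes, or above the latter for mitochondrial share, were left out per library. Clustering used Seurat 5.3.0 and sctransform 0.4.2 in R 4.3.3 (30 components, resolution 0.5, and 0.2 for fibroblasts) without the members and pathway lists among the 3000 variable genes. Simulated doublets called 5825 nuclei, and a sub-cluster of 588 nuclei, 83.0% of them called, was left out, as were low-UMI nuclei (unnamed cluster 3) from the fibroblasts. Cluster 3 held 4381 nuclei and raised 6 fibroblast markers. In Ctrl, ADWA11 and Tgfbr2-cKO it had 589, 436 and 103 nuclei at 7 dpi and 2410, 628 and 215 at 21 dpi. Names came from fixed markers, rebuilt here without an annotation of the authors. Genes tested had at least 20 UMIs over the 2 libraries, and a log2 ratio of at least 1 in size counted as called. With 1 library per group there is no test. Ratios and the ranking of genes most like a member were checked on simulated counts (Python 3.11.15, scipy 1.17.1). These counts were drawn with counting error only, so variation between mice was not covered. Genes named were the 9 members, others taken from the at most 2 largest called ratios per direction of each pathway list with at least 20 UMIs in the higher library, and the 3 most like each member among genes with 200 UMIs. Clustering, marker gates, doublets, thinning, the 2 sexes, edgeR 4.0.16 TMM scaling and the myeloid background were varied as alternatives. The members and lists were chosen with earlier results of these data known.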

Additional observations from a re-analysis of the deposited data

Results flagged for a closer look

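Lum and Ogn differed from Ctrl in opposite directions at 7 and 21 dpi under Tgfbr2-cKO. For Lum the log2 ratio at 21 dpi minus that at 7 dpi was -1.74 (0.41 at 7 dpi and -1.33 at 21 dpi), and for Ogn it was 1.03 (-0.59 and 0.43), where -0.59 was -0.05 in female and -1.53 in male nuclei. Under ADWA11 the same held for Lum, with a difference of -0.91 (0.58 and -0.34), and for Omd, with -0.96 (0.46 and -0.50). With the myeloid level subtracted, Lum at 21 dpi stood at 55.4 CPM in Ctrl and 53.8 CPM in ADWA11. Omd at 7 dpi then stood at 3.57 and 3.39 CPM, so its higher level under ADWA11 was not kept. In female and in male nuclei alone, the interval of Omd at 7 dpi held 0 (-0.06 to 1.31 and -0.31 to 1.13). The differences rest on 4 libraries each and were not tested. Myeloid-like nuclei held Lum at 10.4 and 36.3 CPM in Ctrl at 7 and 21 dpi and at 1.49 and 5.13 CPM in Tgfbr2-cKO, and the part of this background in the turn of Lum was not tested.

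A cluster of 611 nuclei with the bone genes Col22a1, Bglap, Ibsp and Sp7 among its leading genes was left unnamed, since it raised markers of fibroblasts and osteoblasts, and it was outside the comparisons above. Its level of Lum, Fmod, Aspn and Omd was above that of fibroblasts in any library, and Bgn and Ogn were within their range. Pooled over libraries, it stood at 205 CPM of Lum, 77.2 CPM of Fmod, 218 CPM of Bgn, 125 CPM of Ogn, 162 CPM of Aspn and 83.6 CPM of Omd. Its nuclei numbered 178 in Ctrl and 292 in ADWA11 at 21 dpi and 2 in each Tgfbr2-cKO library. Lesions were separated from the skullcap by hand per the study's methods, and whether bone cells came along was not tested.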

How the results depend on the processing

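No paired analysis was possible because the labels give 1 library per group and tie no nucleus to a mouse; nuclei split by sex, inferred from expression, were compared by value only. No result reversed its sign among called values, and over 9 members and 15 alternatives 114, 128, 132, 117 and 135 of 135 kept their sign in Tgfbr2-cKO at 7 and 21 dpi, ADWA11 at 7 and 21 dpi, and Ctrl over time. Counting the low-UMI cluster, subtracting the myeloid level, leaving out marker-positive nuclei and the alternatives to held shares were chosen after seeing the data. Members called lower numbered 2 to 7 over these settings in Tgfbr2-cKO at 7 dpi and 2 to 3 at 21 dpi, 2 and 0 to 1 under ADWA11, and 3 to 5 were called higher over Ctrl time. In place of 0, 1 member was called higher in Tgfbr2-cKO at 21 dpi in 3 settings (female nuclei, F7 left out, myeloid level subtracted) and under ADWA11 at 7 dpi in both marker gates. For Tgfbr2-cKO at 7 dpi the median of -0.59 moved to -1.12 in male nuclei, -0.13 in the marker gate without percentile filter, -0.13 in nuclei without neuron or oligodendrocyte marker UMIs and -1.39 without the 5 nuclei of most UMIs, a setting that takes a larger share of the smaller library. Under ADWA11 it moved to 0.18 in female nuclei at 7 dpi, and to 0.0033 at 21 dpi with the bone-gene cluster counted as fibroblasts. Over Ctrl time it moved to 1.24 in the gate without filter and 0.78 with the myeloid level subtracted, where Fmod was at 0.78. With shares held, ADWA11 at 7 dpi stood at 0.016 thinned and -0.014 subtracted, ADWA11 at 21 dpi at -0.11 in female, -0.15 in male, -0.12 in thinned nuclei and 0.028 subtracted, and Ctrl over time at 0.70 in female and 0.36 in male nuclei and 0.13 subtracted. Summed over all members, the level of a library without neuron-like nuclei was 375 CPM in place of 369 in Ctrl at 7 dpi, 80.1 in place of 21.7 in Tgfbr2-cKO at 7 dpi and 183 in place of 138 at 21 dpi, and in such sums fewer cells and less RNA per cell cannot be told apart. Among called members, Bgn in Tgfbr2-cKO at 7 dpi (-0.98 subtracted) and Lum at 21 dpi (-0.64 in male nuclei) were short of 2-fold in 1 and 2 of 15 alternatives, as were Lum in 1 and Fmod in 5 over Ctrl time. The cause of these shifts was not tested. Depth limits the 7 dpi Tgfbr2-cKO values most, with 8 to 11 UMIs for Fmod, Omd and Prelp.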
